A study of Mus musculus with 8 samples.

Results

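The genes of the proteasome and of its assembly were followed in mouse liver RNA from 2 groups of 4 libraries, labelled feeding glucose (FG 93, 94, 95 and 96) and starvation glucose (SG 101, 103, 104 and 105). All mice had been through 22 weeks of fasting on every other day, and the series text places the comparison between glucose taken in the fed and in the fasted state. The labels give no strain, genotype, sex, age or hour of collection, and they do not say whether food and water were otherwise alike. Whether each library is a mouse of its own is not stated in them, so a p-value here speaks of the spread between libraries, part of which may be technical. Members were the protein-coding genes whose symbol begins with Psm, a letter from a to g and a number, without the immunoproteasome genes Psmb8, Psmb9 and Psmb10. The rule found 47 of the 21358 genes in the table, and they were sorted by role into 14 core subunits, 17 of the regulatory particle, 7 assembly factors and 6 activators and inhibitors. The remainder were Psma8, a core subunit best known from the testis, and Psmc3ip and Psme3ip1, which are not subunits: the former encodes a meiotic recombination protein and the latter a partner of the activator Psme3.

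The proteasome is the main protease of the cytosol and nucleus for proteins tagged with ubiquitin. Its core is a barrel of stacked rings in which the alpha subunits form the gate and the beta subunits carry the cutting sites. The regulatory particle caps the barrel, with a base of ATPases that unfold and feed in the substrate and a lid that removes the ubiquitin chains. In the liver, as elsewhere, it works beside autophagy, and the transcription factor NFE2L1 is known to raise many of its genes together when proteasome activity falls.

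Levels are given in FPKM, which relate a gene's fragments to its length in kilobases and to all fragments counted. That total lay between 36545128 and 41977438 fragments over the 8 libraries. A tested member rested on 94 to 8157 fragments in a library, with a median of 2358. Hepatocyte markers (Alb, Apoa1, Ttr, Tat, Hnf4a and Serpina1a) were all present, summing to 47521 to 57677 FPKM in FG and 49209 to 65616 in SG; of these 6, 2 rose in SG (Apoa1 and Serpina1a). Of the marker lists for other cells, 1 of 5 tested genes fell for sinusoidal endothelium (Clec4g), 1 of 2 for cholangiocytes (Spp1) and 1 of 2 for lymphocytes or neutrophils (S100a9), against 0 of 5 for Kupffer cells and 0 of 4 for stellate cells. After the median-ratio scaling described below, Clec4g, Spp1 and S100a9 were not called (limma adjusted p = 0.0625, 0.076 and 0.0679). Apoa1 and Serpina1a still were (limma adjusted p = 0.0384 and 0.00787). S100a8, too low to be tested at 1 to 23 fragments in a library, had every SG library below every FG library. The summed endothelial markers were 69.5 to 85.9 FPKM in FG and 52.4 to 61.8 in SG, and Clec4g alone carried the separation: the other 4 summed to 21.7 to 28.7 and 19.96 to 29.8. For cholangiocyte markers the sums were 21.9 to 27.7 and 13.0 to 19.1, and 2.70 to 11.8 and 1.75 to 3.18 without Spp1. Kupffer cell markers summed to 92.8 to 139 FPKM in FG and 84.5 to 141 in SG, stellate cell markers to 60.8 to 107 and 61.3 to 83.8, and lymphocyte or neutrophil markers to 3.25 to 7.47 and 3.33 to 4.12. No marker value was at 0, and the part of these cells in the results below was not tested. In whole tissue, fewer cells of a type and less RNA per cell cannot be told apart.

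On the deposited values, 10 of the 45 tested members fell in SG, 0 rose and 35 did not pass the test (limma on log2(FPKM + 1), adjusted p below 0.05 over all 9867 tested genes). Those that fell were the core subunits Psma2, Psma7, Psmb5 and Psmb7, the base subunits Psmc2, Psmc4, Psmd1 and Psmd2, the assembly chaperone Psmd5 and the activator Psme3. They make up 22.2% of the tested members, where 15.6% of all tested genes were called lower. The log2 fold changes of SG against FG had a median of -0.257 over the members and -0.135 over all tested genes, and they were negative for 44 of 45 members and for 69.9% of all genes. In 12 members every SG library lay below every FG library, a pattern shown by 21.8% of all tested genes and by 8 of the 10 members that fell.

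These calls depended on the scale. Dividing each library by its median ratio to the other libraries, with factors of 1.03 to 1.13 in FG and 0.929 to 0.975 in SG, left 0 of 45 members called by limma in either direction (5 at an unadjusted p below 0.05, all lower), while 4.74% of all tested genes were called lower. The 5 are 11.1% of the members, where 27.5% of all tested genes had such a p in either direction, 1346 of 9867 lower. The member median was then -0.083 against 0.006 for all genes. Of the members, 36 of 45 stayed negative, where 48.9% of all tested genes were negative. After scaling, 1 member (Psma2) kept non-overlapping groups, where 9.12% of all genes had every SG library lower. Rescaling the deposited values without the 10 most abundant genes and the 13 mitochondrially encoded protein genes gave 19 lower members. The 19 include Psme3ip1, which is not a subunit. Quantile normalization gave 4. Over all tested genes, 1912 were called in either direction as deposited, 2265 when rescaled and 1078 with quantile normalization. Among the deposited-scale fits that left out 1 library, the count was 0 without FG 93 and 0 without FG 95, 1 without SG 103, SG 104 or SG 105, 3 without FG 94, 7 without FG 96 and 15 without SG 101. Over all tested genes, 834 were called in either direction without FG 93, 1102 without FG 95 and 1087 without SG 103. The number was 1036 without SG 104 or SG 105, 1428 without FG 94, 1373 without FG 96 and 2363 without SG 101.

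**Figure D1:**
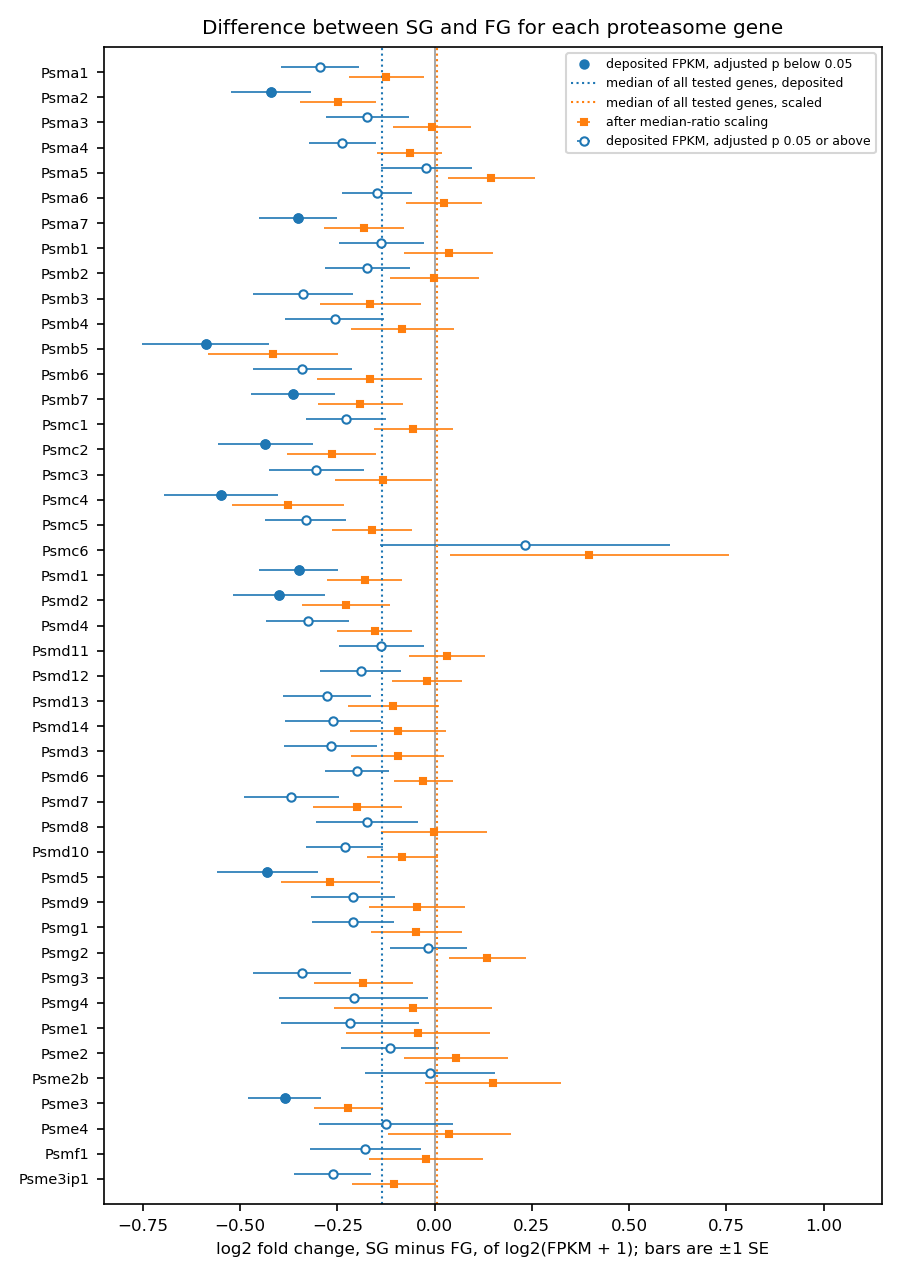
Log2 fold change of SG against FG on the log2(FPKM + 1) scale (horizontal axis, bars are 1 SE) for each of the 45 tested members (vertical axis), as deposited (blue circles, filled where the adjusted p was below 0.05) and after median-ratio scaling (orange squares); dotted lines mark the medians of all 9867 tested genes. The 10 filled circles lie between -0.59 and -0.35, and no square passes the test; Psmc6 alone lies to the right of 0 on the deposited scale.

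Of the 7 alpha ring subunits, 2 fell, with a median log2 fold change of -0.237 over the ring. The share lower was 28.6%, where 15.6% of all tested genes were called lower. Psma2 was measured at 73.6, 68.2, 72.7 and 63.6 FPKM in FG 93, 94, 95 and 96, and at 54.9, 51.0, 57.7 and 43.8 FPKM in SG 101, 103, 104 and 105. All SG values were below all FG values, on the deposited and on the scaled values. Its log2 fold change was -0.42 ± 0.10 (SE; limma adjusted p = 0.0233; exact two-sided permutation p = 0.0286, the smallest that 4 against 4 can give). Leaving out FG 93, FG 95 or SG 103 ended the call (adjusted p up to 0.0705). Psma7 stood at 51.8, 49.1, 62.1 and 47.9 FPKM in FG and 40.2, 40.9, 44.4 and 38.3 in SG, again without overlap, and its log2 fold change was -0.35 ± 0.10 (limma adjusted p = 0.0385). This call was kept only without FG 96 (adjusted p = 0.0495 there, and up to 0.091 without another library). The groups of Psma1 and Psma4 did not overlap either, with log2 fold changes of -0.30 and -0.24, but these missed the threshold (limma adjusted p = 0.0682 and 0.0836). Psma3 (-0.17, limma adjusted p = 0.279) and Psma6 (-0.15, limma adjusted p = 0.266) lay closer to the median of all genes. Psma5 was at 27.4, 26.8, 31.8 and 24.8 FPKM in FG and 26.4, 29.0, 31.2 and 22.7 in SG, so that its groups overlapped throughout (-0.02 ± 0.12, limma adjusted p = 0.908).

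The 3 constitutive cutting subunits of the beta ring are Psmb5, with chymotrypsin-like activity, Psmb6, with caspase-like activity, and Psmb7, with trypsin-like activity. Psmb5 had the most negative fold change of all members: it was at 99.2, 78.0, 113 and 79.9 FPKM in FG and 78.6, 57.1, 60.01 and 49.5 in SG. SG 101 lay just above FG 94, and the other SG libraries were below every FG library. The log2 fold change was -0.59 ± 0.16 (limma adjusted p = 0.036; exact permutation p = 0.0571), a mean level of 0.663 times that in FG; the call was lost without FG 93, FG 95, SG 103, SG 104 or SG 105 (adjusted p up to 0.0976). Psmb7 fell from 122, 116, 134 and 109 FPKM in FG to 103, 88.2, 103 and 80.3 in SG with no overlap (-0.37 ± 0.11, limma adjusted p = 0.0436), a call kept only without SG 101 among the fits that left out 1 library (adjusted p up to 0.106). Psmb6, at 94.4, 89.9, 115 and 90.7 FPKM in FG and 93.2, 73.2, 77.1 and 64.8 in SG, overlapped between the groups through SG 101 and missed the threshold (-0.34 ± 0.13, limma adjusted p = 0.0878), which it passed without SG 101 (-0.43, adjusted p = 0.0277). In other fits without 1 library its limma adjusted p was up to 0.197. The structural beta subunits did not pass the test: Psmb3 had a log2 fold change of -0.34 (limma adjusted p = 0.0921), Psmb4 of -0.26 (0.181), Psmb2 of -0.17 (0.292) and Psmb1 of -0.14 (0.396). Over the ring, 2 of 7 fell (28.6%, against 15.6% of all tested genes) and the median log2 fold change was -0.339. After median-ratio scaling the medians were -0.064 for the alpha ring and -0.166 for the beta ring.

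The cutting subunits have inducible counterparts outside the symbol rule, Psmb8, Psmb9 and Psmb10, which replace Psmb5, Psmb6 and Psmb7 in the immunoproteasome. Their log2 fold changes were -0.41, -0.44 and -0.46, and none passed the test (limma adjusted p = 0.0682, 0.201 and 0.0506). Without SG 101 all 3 were called lower (-0.50, -0.67 and -0.57, limma adjusted p = 0.0313, 0.0217 and 0.0182). That fit called 2363 of all tested genes in either direction, against 1912 with all libraries. In other fits without 1 library the limma adjusted p reached 0.16, 0.402 and 0.121. The ratio of Psmb8 to Psmb5 in FPKM was 0.253 ± 0.042 in FG and 0.282 ± 0.018 in SG (SD, n = 4 each). The ratio of Psmb9 to Psmb6 was 0.126 ± 0.023 and 0.115 ± 0.030, and that of Psmb10 to Psmb7 was 0.2 ± 0.016 and 0.185 ± 0.022. In all 3 pairs the difference of means was smaller than the larger SD.

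The base of the regulatory particle held 4 of the 10 members that fell, among 9 tested, and had a median log2 fold change of -0.332. The share lower was 44.4%, where 15.6% of all tested genes were called lower and the all-gene median was -0.135. After median-ratio scaling none of the 9 was called. Psmc4, an ATPase of the unfolding ring, was at 63.4, 57.5, 65.8 and 53.8 FPKM in FG and 50.8, 40.2, 43.4 and 30.7 in SG. The groups did not overlap, and SG 105 was lowest by far; the log2 fold change was -0.55 ± 0.15 (limma adjusted p = 0.0316). Psmc2, another ATPase of the ring, was at 43.2, 39.0, 40.9 and 35.5 FPKM in FG against 32.2, 30.1, 32.1 and 22.7 in SG (-0.44 ± 0.12, limma adjusted p = 0.0381). Psmd1, a scaffold of the base, was at 39.7, 36.9, 39.2 and 34.7 FPKM in FG against 32.4, 29.8, 30.8 and 24.7 in SG, again without overlap (-0.35 ± 0.10, limma adjusted p = 0.0395). Psmd2, the other large scaffold and a docking site for ubiquitin shuttles, was at 59.0, 51.5, 58.4 and 46.8 FPKM in FG and 46.8, 40.4, 41.7 and 33.9 in SG, where SG 101 and FG 96 touched (-0.40 ± 0.12, limma adjusted p = 0.0437). Psmd4, a ubiquitin receptor, missed the threshold although its groups did not overlap: it read 69.3, 57.5, 64.5 and 54.6 FPKM in FG and 48.9, 53.6, 50.4 and 42.3 in SG (-0.33 ± 0.11, limma adjusted p = 0.0608). Psmc4, Psmc2 and Psmd2 were each called without FG 96 or SG 101, and Psmd1 without SG 101, but not without any other library (adjusted p up to 0.0865, 0.106, 0.12 and 0.107). Of the other ATPases, Psmc5 had non-overlapping groups and a log2 fold change of -0.33 (limma adjusted p = 0.0552), Psmc3 of -0.30 (0.108) and Psmc1 of -0.23 (0.142).

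None of the 8 lid subunits passed the test (limma, 3 of them at an unadjusted p below 0.05, all lower), all 8 log2 fold changes were negative, and their median was -0.230. The unadjusted share was 37.5%. Of all tested genes 35.6% had such a p in either direction, 2865 of 9867 lower, and 15.6% were called lower. Psmd14, the deubiquitinase of the lid, was at 25.1, 26.9, 26.3 and 20.9 FPKM in FG and 24.2, 18.5, 22.2 and 17.6 in SG, and the ranges crossed (-0.26 ± 0.12, limma adjusted p = 0.165). The most negative lid gene was Psmd7, a structural partner of Psmd14, at 43.4, 39.6, 44.9 and 35.6 FPKM in FG and 32.9, 36.1, 31.8 and 25.4 in SG (-0.37 ± 0.12, limma adjusted p = 0.0622). Psmd13 followed with -0.28 (limma adjusted p = 0.114), and Psmd3, Psmd6 and Psmd12 lay between -0.27 and -0.19. Psmd8 (-0.18, limma adjusted p = 0.37) and Psmd11 (-0.14, limma adjusted p = 0.402) were nearest to the median of all genes. The difference between base and lid was not tested. After median-ratio scaling the medians were -0.161 for the base and -0.061 for the lid.

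Psmc6, an ATPase of the base, went apart from the other members. It was at 19.7, 27.9, 7.70 and 18.5 FPKM in FG 93, 94, 95 and 96 and at 11.3, 26.8, 25.7 and 20.1 in SG 101, 103, 104 and 105. FG 95 and SG 101 were the lowest libraries of their groups, and the highest library stood 3.62 times above the lowest. Its coefficient of variation was 44.9% in FG and 33.8% in SG, where the medians over the tested members were 10.6% and 13.5%. The log2 fold change was 0.23 ± 0.37 (limma adjusted p = 0.686) and turned to -0.11 without FG 95, so the data show no direction for it. Psme4, which encodes the large activator of the core known from DNA repair and sperm formation, was the only other member lowest in the same pair of libraries: it read 17.3, 17.9, 12.2 and 15.3 FPKM in FG and 9.98, 15.9, 16.7 and 14.99 in SG (-0.13 ± 0.17, limma adjusted p = 0.633).

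FG 95 and SG 101 lay often at an end of their groups. Of all tested genes 21.7% were lowest of their groups in both FG 95 and SG 101, against 4.44% of the members (Psmc6 and Psme4). Conversely 18.2% of all tested genes, but 42.2% of the members (19 of 45), were highest of their groups in both, among them 5 of the 7 beta ring genes. Malat1, a nuclear noncoding RNA named here after its values were seen, read 18.3, 28.1, 4.11 and 15.6 FPKM in FG and 19.6, 60.1, 63.1 and 49.2 in SG, with FG 95 and SG 101 again lowest. What sets these libraries apart was not tested. Without both, 7 members were called lower on the deposited scale (Psma2, Psmb5, Psmb6, Psmc4, Psmd1, Psmd2 and Psme3) and 1 after median-ratio scaling (Psmb5); without SG 101 alone, 2 were called after scaling (Psmb5 and Psmc4). These fits were added after the data were seen. On the deposited scale, 1884 of all tested genes were called in either direction without both, against 1912 with all libraries. How many of all tested genes the scaled fits called is not given here. SG 105 was the lowest SG library for 36 of 45 members, where it was lowest for 34.5% of all tested genes, and it was lowest for all 7 beta ring genes.

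**Figure D2:**
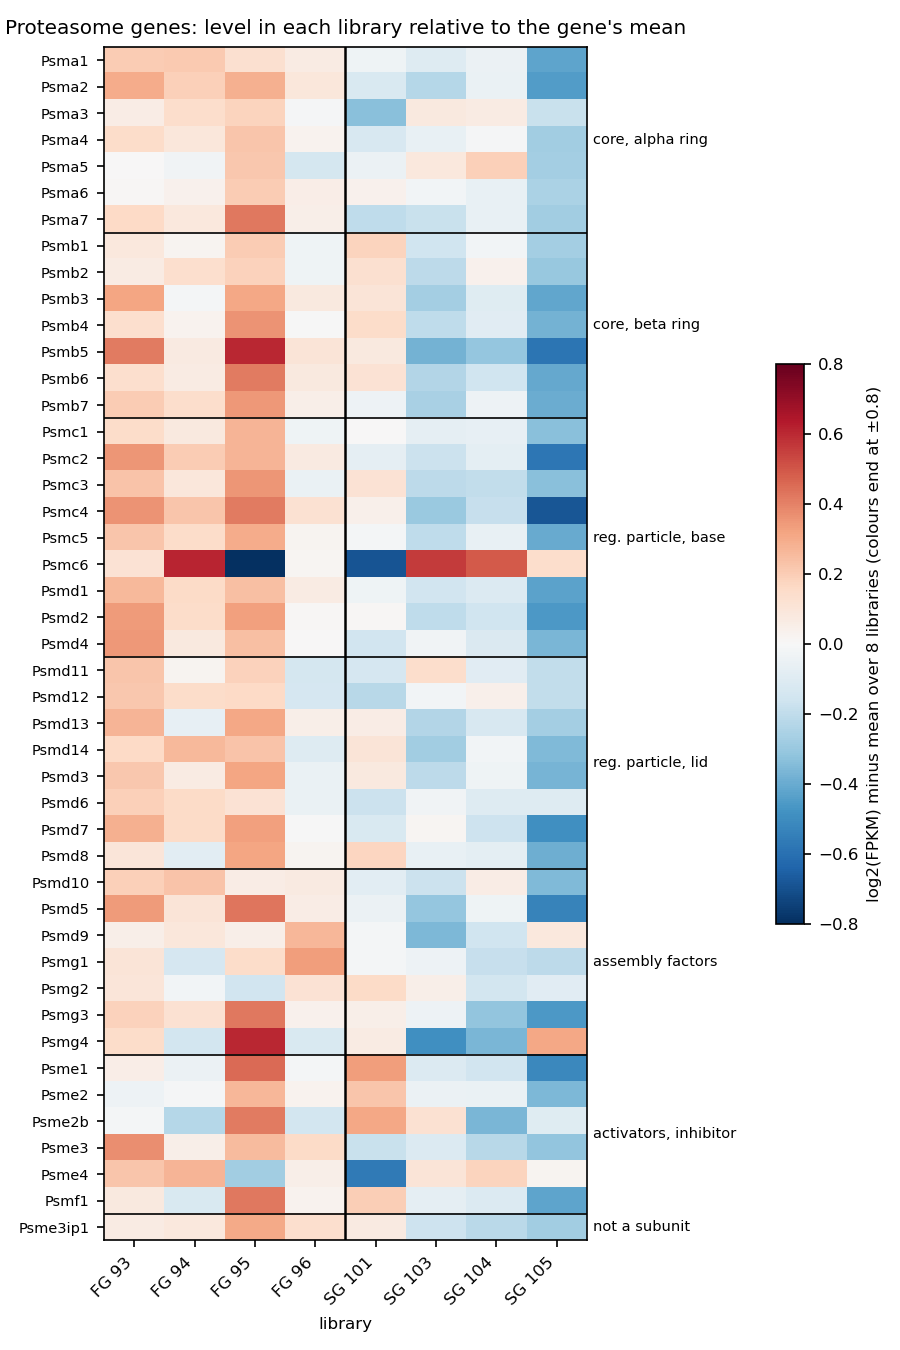
Level of the 45 tested members (rows, grouped by role) in each library (columns, FG left and SG right of the line) as log2(FPKM) minus the gene's mean over the 8 libraries, red above and blue below that mean. FG 95 is the reddest column for 27 of 45 members within FG and SG 105 is the lowest SG column for 36, while Psmc6 runs the other way in FG 95 and SG 101.

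**Figure D3:**
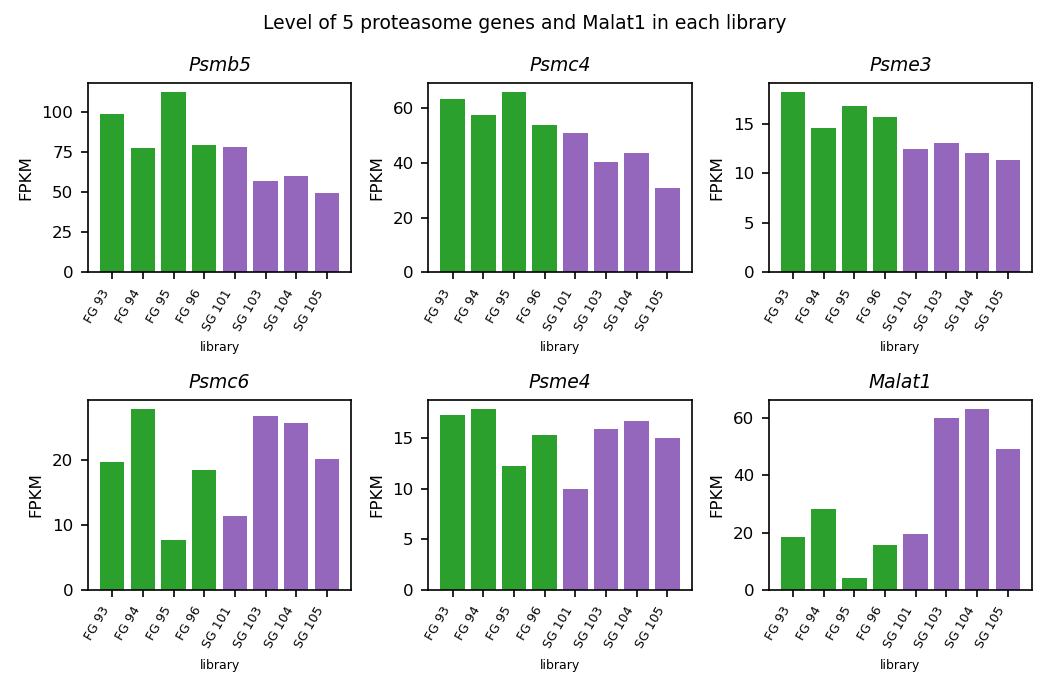
FPKM (vertical axis, from 0) of Psmb5, Psmc4, Psme3, Psmc6, Psme4 and, as a gene outside the family, Malat1 in each library (bars, FG green and SG purple). Psmb5, Psmc4 and Psme3 are mostly lower in SG, and Psmc6 shares its low FG 95 and SG 101 bars with Psme4 and Malat1.

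Assembly of the core is guided by the chaperones Psmg1 to Psmg4, and that of the base by Psmd5, Psmd9 and Psmd10. Of these 7, Psmd5 fell: it was at 16.2, 13.8, 17.2 and 13.4 FPKM in FG and 12.4, 10.3, 12.5 and 8.84 in SG, with no overlap (-0.43 ± 0.13, limma adjusted p = 0.047), a call kept only without SG 101 among the fits that left out 1 library (adjusted p up to 0.122). Psmg3 was at 9.75, 9.33, 11.5 and 8.78 FPKM in FG and 8.87, 8.36, 6.91 and 6.25 in SG, where SG 101 overlapped FG 96 (-0.34 ± 0.13, limma adjusted p = 0.0861), and it passed without SG 101 (-0.41, adjusted p = 0.0455). In other fits without 1 library its limma adjusted p was up to 0.197. Psmg1 read 15.1, 12.8, 15.6 and 17.7 FPKM in FG and 13.9, 13.7, 12.4 and 12.2 in SG, with overlapping groups (-0.21 ± 0.11, limma adjusted p = 0.189). Psmd9, Psmd10 and Psmg4 lay between -0.23 and -0.21 and did not pass the test. Psmg2 read 6.69, 6.15, 5.61 and 6.78 FPKM in FG and 6.96, 6.45, 5.65 and 5.87 in SG and had the smallest change of the class (-0.02 ± 0.10, limma adjusted p = 0.923). The share lower in the class was 14.3%, near the 15.6% of all tested genes. The median of the class was -0.211, and -0.056 after scaling.

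Among the activators and the inhibitor, Psme3 fell, and the others lay nearer to the median of all genes. Psme3, the nuclear activator of the core that works without ubiquitin, read 18.2, 14.6, 16.8 and 15.7 FPKM in FG and 12.5, 13.1, 12.1 and 11.3 in SG. The groups were apart and the SG libraries close together, and its log2 fold change of -0.39 ± 0.09 had the smallest adjusted p of all members (limma adjusted p = 0.0228). Leaving out FG 93, FG 95, SG 104 or SG 105 ended the call (adjusted p up to 0.0661). Psme1 and Psme2 form the activator that is raised by interferon gamma. Psme1 was at 83.8, 78.2, 110 and 79.7 FPKM in FG and 102, 75.0, 72.5 and 56.5 in SG, so SG 101 exceeded all FG libraries but FG 95 (-0.22 ± 0.18, limma adjusted p = 0.415). Psme2 was at 40.1, 41.1, 49.6 and 42.1 FPKM in FG and 48.1, 40.0, 39.7 and 32.2 in SG, with the same 2 libraries on top (-0.12 ± 0.13, limma adjusted p = 0.541). Psme2b is a retrocopy of Psme2, so fragments of the 2 genes may be shared and its level is uncertain (-0.01, limma adjusted p = 0.965). Psmf1, which inhibits the core in the test tube, was at 8.85, 7.72, 11.2 and 8.55 FPKM in FG and 9.64, 7.99, 7.79 and 6.27 in SG (-0.18 ± 0.14, limma adjusted p = 0.4). The share lower in the class was 16.7%, near the 15.6% of all tested genes. The class median was -0.152 on the deposited and 0.008 on the scaled values, so its sign turned with the scale.

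Both members outside these roles that could not be tested were nearly silent. Psma8 had 10 to 15 fragments in the FG libraries and 18 to 30 in the SG libraries, or 0.116 to 0.169 and 0.219 to 0.340 FPKM, without overlap on the deposited or the scaled values (exact permutation p = 0.0286). It was under the filter of 1 FPKM in 4 libraries; with no filter its log2(FPKM + 1) was 0.17 ± 0.03 higher in SG and it was the only member called higher (limma adjusted p = 0.0336). Psmc3ip had 0 to 20 fragments per library and overlapping groups. Psme3ip1 was tested and did not pass (-0.26, limma adjusted p = 0.0907).

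Summed over a class, the levels of the core genes came to 1080, 1011, 1189 and 979 FPKM in FG 93, 94, 95 and 96 and to 979, 844, 915 and 745 FPKM in SG 101, 103, 104 and 105. FG 96 and SG 101 were level, and the other SG libraries were below every FG library. The means were 1065 ± 92.8 and 870.5 ± 100.4 FPKM (SD, n = 4 each), a difference of -18.2%. The regulatory particle summed to 783 ± 65.9 FPKM in FG and 640 ± 64.1 in SG, also -18.2%, and the assembly factors to 78.2 ± 4.37 and 64.8 ± 4.12, or -17.1%. The activators and inhibitor summed to 185 ± 21.7 and 164 ± 26.6 FPKM, or -11.5%, with overlapping libraries. After median-ratio scaling the differences were -7.72%, -7.67%, -6.46% and -0.203% in the same order, each smaller than the larger SD of its pair of groups.

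**Figure D4:**
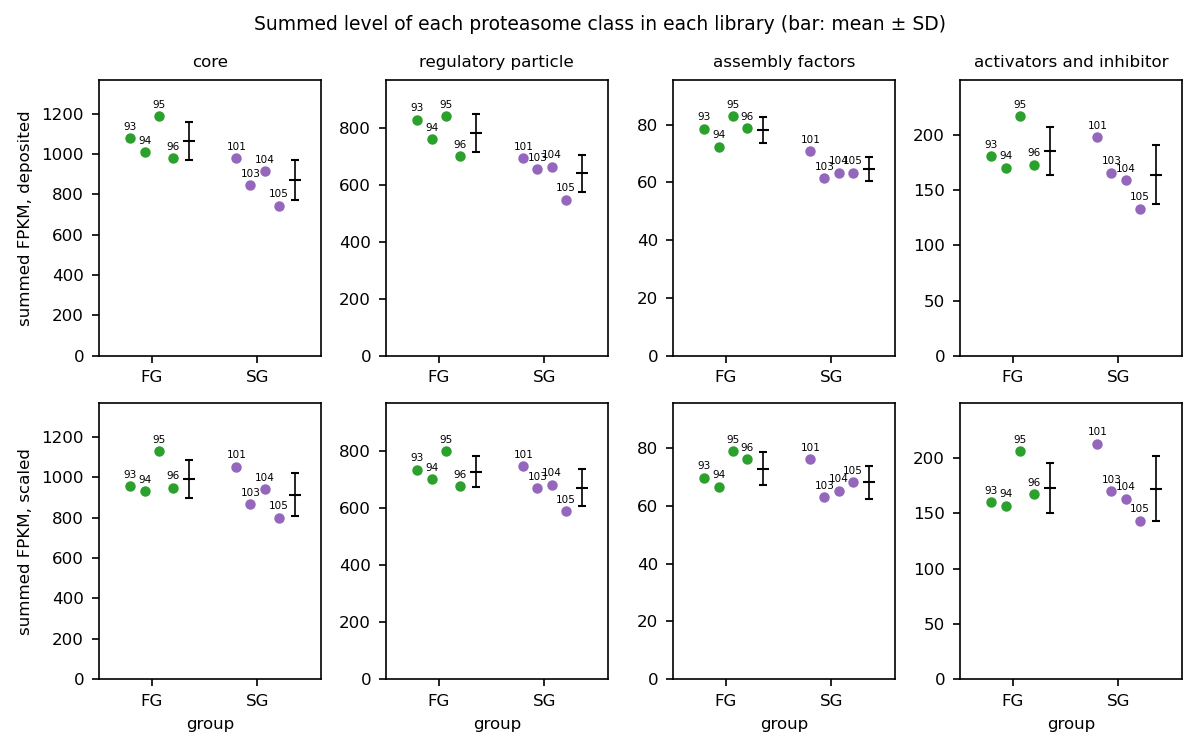
Summed FPKM (vertical axes, from 0) of the core, regulatory particle, assembly factors and activators with the inhibitor in each library (points, numbered by library), with the group mean and SD beside them; upper row as deposited, lower row after median-ratio scaling. The core means are 1065 and 870.5 FPKM above and 992 and 915 below, where the groups overlap in all 4 classes.

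Levels differed more between subunits than between groups, although subunits of a ring are present in equal numbers in the protein complex. Averaged over the 8 libraries, core genes ran from 18.3 FPKM (Psma3) to 112 FPKM (Psmb4) and those of the regulatory particle from 19.7 (Psmc6) to 71.5 (Psmd8). Assembly factors were lower, from 5.66 (Psmd10) to 16.9 (Psmd9), and activators and the inhibitor ran from 8.504 (Psmf1) to 82.2 (Psme1). This order depends on the gene length behind each FPKM. The length recovered for Psma2 was 946 bases, where the principal transcript in GENCODE has 2911, and per that length Psma2, at 19.7, was the lowest core gene. The ratios between the groups do not depend on the length.

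The genes of the proteasome outside the symbol rule gave 1 fall among 8 tested and a median log2 fold change of -0.213. That is 12.5%, where 15.6% of all tested genes were called lower. Txnl1, a thioredoxin-like protein bound to the regulatory particle, fell (-0.36, limma adjusted p = 0.0451), a call lost without any 1 of the 8 libraries (adjusted p 0.0531 to 0.124). The core maturation factor Pomp was at 92.9, 105, 103 and 92.2 FPKM in FG and 91.5, 86.1, 88.2 and 73.1 in SG, without overlap (-0.22, limma adjusted p = 0.139). Neither the ubiquitin receptor Adrm1 (-0.30, limma adjusted p = 0.128), the deubiquitinases Usp14 (-0.32, 0.0833) and Uchl5 (-0.20, 0.453) nor the lid subunit Sem1 (0.01, 0.967) passed.

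NFE2L1, the factor that drives proteasome genes, is made inactive at the endoplasmic reticulum and released with the help of the extraction ATPase VCP, the deglycosylating enzyme NGLY1 and the protease DDI2. Nfe2l1 read 38.0, 25.1, 30.8 and 24.2 FPKM in FG and 24.1, 32.5, 32.8 and 34.5 in SG, with overlap, and did not pass (0.08, limma adjusted p = 0.765). Of the 9 tested genes of this list 2 fell (22.2%, against 15.6% of all tested genes), and the median was -0.255. They were Nfe2l2, the related factor of the oxidative stress response, and Vcp. Nfe2l2 read 37.0, 36.3, 26.5 and 30.3 FPKM in FG and 18.6, 24.3, 22.5 and 18.4 in SG (-0.61, limma adjusted p = 0.0178), and it was called after median-ratio scaling too (-0.44, limma adjusted p = 0.0464), though not without FG 93 on the deposited scale (limma adjusted p = 0.0543). Vcp read 107, 92.5, 102 and 87.7 FPKM in FG and 77.7, 68.6, 74.8 and 58.3 in SG (-0.48, limma adjusted p = 0.0204), and it was not called after scaling (limma adjusted p = 0.104) or without FG 93, FG 95 or SG 103 (adjusted p up to 0.063). Ddi2 and Ngly1 did not pass on either scale: their log2 fold changes were 0.18 and 0.07 as deposited (limma adjusted p = 0.301 and 0.762) and 0.34 and 0.23 after scaling (limma adjusted p = 0.102 and 0.285), where every SG library of Ddi2 lay above every FG library. Of the 9 genes, 4 had an unadjusted p below 0.05 after scaling, 2 lower and 2 higher (Ddi2 and Mafg, the latter named after its values were seen). That is 44.4%, where 27.5% of all tested genes had such a p.

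Ubb, a polyubiquitin gene, had a log2 fold change of -0.06 (limma adjusted p = 0.666). Uba1, the main ubiquitin-activating enzyme, fell (-0.43, limma adjusted p = 0.03), but not after scaling or without FG 93, FG 95, FG 96, SG 103, SG 104 or SG 105 (adjusted p up to 0.0865). Of 11 ubiquitin shuttles and VCP cofactors none passed (limma, 4 at an unadjusted p below 0.05), with a median of -0.161. The 4, all lower, are 36.4%. Of all tested genes 35.6% had such a p in either direction, 2865 of 9867 lower, and 15.6% were called lower.

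Other large complexes of the cytosol were set beside the proteasome. The COP9 signalosome and the initiation factor eIF3 share their architecture with the lid. Of the former 2 of 10 fell (Gps1 and Cops4), with a median of -0.157, and of the latter 3 of 13 (Eif3b, Eif3c and Eif3g), with a median of -0.195. The CCT chaperonin, a folding barrel with no relation to the lid, had 5 of 8 lower (Tcp1, Cct3, Cct4, Cct5 and Cct8) and a median of -0.302. The shares lower were 20%, 23.1% and 62.5%, where 15.6% of all tested genes were called lower and the all-gene median was -0.135. After median-ratio scaling none of the genes of these 3 complexes was called by limma (3, 1 and 2 at an unadjusted p below 0.05), and the medians were -0.009, -0.024 and -0.130. These unadjusted counts are 30%, 7.69% and 25%, where 27.5% of all tested genes had such a p. On the deposited scale Tcp1 and Cct4 kept their calls without any 1 library, Gps1 lost it without FG 93 (adjusted p = 0.0511), Cct8 lost it in all 8 fits without 1 library (adjusted p 0.0581 to 0.101), and Cops4, Eif3b, Eif3c, Eif3g, Cct3 and Cct5 lost theirs without FG 93 or FG 95 and some of the others (adjusted p up to 0.118). The differences between complexes were not tested.

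Proteasome genes are spread over the genome, and the annotation of GRCm38 (GENCODE vM21) placed a divergent protein-coding start within 1 kb upstream of 8 of 47 members (17%), where 6.79% of 21951 protein-coding genes have one. These were Psma2, Psma7, Psmb1, Psmc2, Psmc5, Psmd10, Psmg2 and Psme2. The exons of 11 members overlap exons of a gene on the other strand, and the sources used here do not give the strand setting of the counting. Whether fragments of the partners were told apart there is therefore not known. The share of all genes with such an overlap was not counted. Of the members that fell, Psmb7 (with Nek6) and Psmd1 (with Htr2b) are among the 11.

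Promoters were read from RefSeq (GRCm38.p6), where 39 of 47 members had an entry. The 9-base core of the antioxidant response element, TGACNNNGC, is the motif bound by NFE2L1 and NFE2L2 with small MAF proteins, and it was searched on both strands in the 100 bases before the annotated start. It was found in 3 members, Psmb5, Psmb6 and Psmd9 (7.69%), and in 5.5% of 27025 genes with an entry. The promoters of Psmb5, the member with the most negative fold change, and of Psmd9 are shown with the match in capitals, and that of Psmc4, the regulatory particle gene with the most negative fold change, is shown as one with no match. For Psmb6 the match lies inside an annotated transcript that starts further upstream, so only 30 bases are shown. Each runs 5′ to 3′ on the strand of its gene and ends at the base before the start.
Psmb5, chr14:54617996-54618095, minus strand: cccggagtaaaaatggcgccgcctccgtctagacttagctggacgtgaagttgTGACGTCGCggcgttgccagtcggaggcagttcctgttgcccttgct
Psmd9, chr5:123228090-123228189, plus strand: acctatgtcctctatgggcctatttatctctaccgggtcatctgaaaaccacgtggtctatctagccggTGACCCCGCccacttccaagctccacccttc
Psmc4, chr7:28050093-28050192, minus strand: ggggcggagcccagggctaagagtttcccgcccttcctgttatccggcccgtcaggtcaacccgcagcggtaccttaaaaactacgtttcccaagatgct
Psmb6, chr11:70525327-70525356, plus strand: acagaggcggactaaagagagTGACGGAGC

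Of the 3 genes with a match, Psmb5 fell, while Psmb6 and Psmd9 (17.3, 17.9, 17.4 and 20.2 FPKM in FG; 16.6, 13.1, 15.1 and 17.8 in SG) did not pass. In 250 bases the motif was found for 12.8% of the members and 11.5% of all genes. The CCAAT box, the site of the factor NF-Y, was found in the 100 bases of 10 members (25.6%) and 21.6% of all genes. In 250 bases the shares were 35.9% and 37.5%, so their order turned with the window. The 10 include Psma2, Psmc2 and Psme3, which fell, and Psmc3ip and Psme3ip1, which are not subunits. A match is a description of the letters and not of binding.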

How the data were processed

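Liver mRNA was enriched, fragmented and read as pairs, per the labels' protocols. The tools HISAT2, fastp, HTSeq and DESeq2 and the builds mm10 and GRCm38 are named without versions, per the submitters' processing notes. The authors deposited FPKM for 21358 genes; FPKM are shares of the counted total. Genes at 1 FPKM or more in at least 4 of 8 libraries were fitted with limma 3.58.1 (R 4.3.3, trended empirical Bayes) on log2(FPKM + 1), with Benjamini-Hochberg adjustment; this scale understates changes of low genes. Whole fragments were recovered from the FPKM steps for 100% of the 19391 genes above 0 in 2 or more libraries (tolerance 0.02 fragments), and voom on them called 1849 genes and 9 members. The script was tested on simulated data. Alternatives covered scaling, pseudocount, filter, variance model and leaving out libraries. Members, lists and tests were chosen with earlier results of these data known. Library values are given for called members, catalytic and role-defining subunits and some of the extremes of each class. For the other extremes only the log2 fold change, mostly with its adjusted p, or a range that holds it is given. The values of 1 gene that the naming rule covers are not reported here. The list member Paaf1 was not analysed here, and 0 expression columns were left unmatched.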

Additional observations from a re-analysis of the deposited data

How the results depend on the processing

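Tested members rested on 94 to 8157 fragments in a library, and counting error was not compared with the spread between libraries. The cause of each change below was not tested, except that fits with 1 library left out hold fewer samples. The 1912 genes called in all became 984 with median-ratio, 1040 with trimmed-mean and 1078 with quantile scaling, and 1133 with no filter. They became 2265 when rescaled without the most abundant genes, and 834 (without FG 93) to 2363 (without SG 101) with 1 library left out. The 10 lower members became 0, 0 and 4 under those scalings, 2 with no filter, 19 when rescaled without the most abundant genes, and 0 to 15 with 1 library left out. For the core (4) the counts were 0 with median-ratio and trimmed-mean scaling, 1 with no filter, 8 when rescaled and 0 to 5 with 1 library left out. For the regulatory particle (4) they were 0, 0 and 1 under the scalings, 0 with no filter, 7 when rescaled and 0 to 6. For the assembly factors (1) they were 0 under the 3 scalings, with no filter, with voom and without FG 95 and SG 101, 2 when rescaled or with library weights, and 0 to 2. For the activators and inhibitor (1) they were 0 under the 3 scalings and 0 to 1 with 1 library left out. After median-ratio scaling, 0 to 2 members were called with 1 library left out and 1 without FG 95 and SG 101, fits chosen after seeing the data. Each of the 10 calls was lost in 3 to 7 of the 8 fits without 1 library, with adjusted p up to 0.122.

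Some log2 fold changes that did not pass the test turned sign. With median-ratio and trimmed-mean scaling these were Psme2 (0.054 in both), Psma6 (0.024 in both), Psma5 (0.146 in both), Psmb1 (0.036 and 0.035), Psmd11 (0.032 and 0.031), Psmg2 (0.135 and 0.134), Psme2b (0.150 and 0.149), Ubb (0.118 and 0.117) and the median of the activators and inhibitor (0.008 and 0.007). Psme4 turned with median-ratio scaling too, from -0.126 to 0.038. Of genes outside the members, not all that turned are listed. Quantile normalization turned Psma5 (0.104), Psmg2 (0.136) and Psme2b (0.150), library weights Psma5 (0.112), rescaling without the most abundant genes Sem1 (-0.010), and leaving out FG 95 and SG 101 Psma5 (0.055) and Psme2b (0.016). With 1 library left out, Psmc6 ranged from -0.113 to 0.489, Psma5 from -0.087 to 0.061, Psmg2 from -0.063 to 0.023, Psme2b from -0.111 to 0.115, Nfe2l1 from -0.008 to 0.203 and Sem1 from -0.080 to 0.045. No paired analysis was possible because the groups share no replicate numbers.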
